A study of Homo sapiens with 32 samples.

Results

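Kasumi-1, a human acute myeloid leukaemia line, was treated for 24 h with inhibitors of the histone demethylase KDM1A, and its RNA was sequenced. The members are the 8 libraries, of 32 in the series, whose titles begin with Kasumi1 and carry 24h. They form 4 groups of 2 replicates, which the series' design text calls biological: RN-1, which inhibits KDM1A irreversibly, GSK690, which inhibits it reversibly, GSK690*, an isomer of GSK690 that the design text calls inactive, and the vehicle DMSO. Each of the 3 compounds was given at 1 µM per the titles, and DMSO at 0.1% per the treatment protocol. The protocol names 72 h for Kasumi-1, with no mention of 24 h or GSK690*, so the time and the isomer's dose rest on the titles. All 8 cultures are 1 line, grown in RPMI with 20% fetal calf serum, so a p-value here measures the spread between cultures and not between patients. The question the design implies is which genes respond when KDM1A is inhibited, and the 4 RN-1 and GSK690 libraries were set against the 4 GSK690* and DMSO libraries.

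KDM1A, also called LSD1, removes methyl groups from lysine 4 of histone H3, a mark of active promoters and enhancers. It works in a complex with the scaffold RCOR1 (CoREST) and the histone deacetylases HDAC1 and HDAC2, and in blood cells the repressors GFI1 and GFI1B bring this complex to their target genes. GFI1 is known to restrain genes of the monocyte and macrophage programme in myeloid progenitors, and the myeloid factor PU.1 (SPI1) binds many of the same genes.

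Values are FPKM, fragments per kilobase of transcript scaled to the mapped total, as the authors deposited them. No read counts were used, and sequencing depth is therefore not known. A library's FPKM added up to between 359922 and 384385, and 10551 to 10816 genes reached 1 FPKM. Across genes, replicates of 1 group had a Pearson r of 0.992 to 0.995 on the log2(FPKM + 1) scale, libraries of the same side with another agent 0.992 to 0.996, and inhibitor libraries with control libraries 0.977 to 0.988. A gene was tested if it reached 1 FPKM in at least 2 of the 8 libraries, which 10957 of 23073 did. Changes are differences of log2(FPKM + 1) with their standard error (SE), so the fold of a gene near 0 FPKM is understated, and the words rose and fell are kept for genes whose limma adjusted p over all genes tested was under 0.05.

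The libraries carried the markers of this line. MPO, the myeloperoxidase of granulocyte precursors, stood at 6306 ± 242 FPKM with the inhibitors and 5619 ± 482 FPKM in controls (SD, n = 4 each), and CD33 at 28.0 ± 2.09 and 22.3 ± 1.48 FPKM. RUNX1T1, the partner gene of RUNX1 in the fusion of this line, stood at 43.3 ± 1.02 and 39.0 ± 1.25 FPKM. CD14, the monocyte receptor for lipopolysaccharide, had at most 0.0849 FPKM in any library and GFI1B at most 0.175, so neither was tested. Of 20 T and NK cell markers 3 could be tested and none passed (1 with replicate number as a block, and 1 without RN-1 replicate 1), with a summed level over the list of 4.67 to 5.72 FPKM with the inhibitors and 3.05 to 3.95 FPKM in controls. Of 17 erythroid and 14 adherent cell markers 1 each could be tested (EPOR at log2 0.31 and EPCAM at -0.01), and neither passed, although EPOR passed with replicate number as a block (adjusted p = 0.0395) and without GSK690* replicate 2. Of 3 tested megakaryocyte markers none rose and 1 fell, a call lost without any 1 of 4 libraries (DMSO replicate 1, GSK690* replicate 1 or replicate 2 of either inhibitor), and with replicate number as a block 1 rose and 1 fell. Of 4 tested B cell markers 2 rose and 1 fell (none rose and 1 fell with GSK690* alone as the control). Over all genes tested 13.9% rose and 18.1% fell.

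KDM1A itself has a deposited value in 4 of these libraries. It stood at 66.2 and 60.9 FPKM with RN-1 and at 61.1 FPKM in 1 GSK690 library, against 69.7 FPKM in 1 GSK690* library and no value with DMSO, so the comparison could not be fitted for it.

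Inhibition of KDM1A for 24 h changed many genes by a little and a few by much. LYZ, LY96, KCTD12, PI16, MS4A4A and CD86 rose most, while genes of DNA replication, mitosis, ribosome biogenesis, cholesterol synthesis and heat shock chaperones fell by less than 2-fold. With GSK690* alone as the control, the fallen genes of cholesterol synthesis were 7 in place of 15 and the fallen chaperones 6 in place of 11. Of 10954 genes with a fitted change, 1518 rose (13.9%) and 1978 fell (18.1%), and 31.9% passed in either direction. On the log2 scale the median change was 0.37 among genes that rose and -0.28 among those that fell, against -0.02 over all genes. At least 2-fold rises on this scale were seen in 76 genes, 20 of them in a list below, and a 2-fold fall in 1, the metallothionein MT2A. In each of those 76 genes the 4 inhibitor libraries lay above all 4 controls, as they did in 14.5% of the genes tested, while in 19.6% they lay below all 4. The 76 were chosen by their change in these same libraries, so the lack of overlap follows largely from the choice.

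The size of the change went with the level in controls. Of 351 tested genes with a control mean under 1 FPKM, 164 rose, 29 of them by 2-fold, and 1 fell, but a gene this low had to be high on one side to be tested at all. Of 4408 genes at 1 to 10 FPKM, 750 rose, 36 by 2-fold, and 363 fell. Of 5612 genes at 10 to 100 FPKM, 549 rose, 11 by 2-fold, and 1414 fell. Of 586 genes over 100 FPKM, 55 rose and 200 fell, and none rose by 2-fold. With replicate number as a block 4435 genes passed. Without DMSO replicate 1 the 3496 genes became 2315, and without GSK690 replicate 2 they became 2258. Scaling by the median of ratios left 1748 genes higher and 1625 lower.

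**Figure D1:**
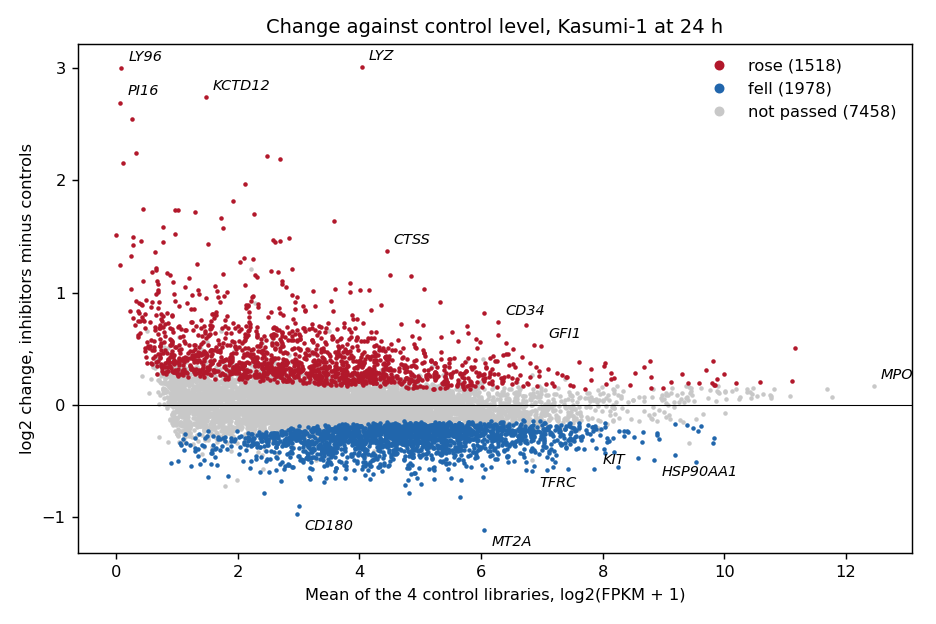
The log2 change of each gene (inhibitors minus controls, vertical) is plotted against its mean in the 4 control libraries on the log2(FPKM + 1) scale (horizontal), with 1518 genes that rose in red, 1978 that fell in blue and the others in grey. The large changes are rises of genes low in controls, such as LY96 and PI16, while genes over 100 FPKM moved by less than 2-fold.

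Of the 12 genes with the highest change, 8 have a promoter in the RefSeq table (GRCh38.p14), and 4 windows of 250 bases before the start site are shown because CD86, MS4A4A and PI16 were present in every inhibitor library, against near 0 in every control, while KCTD12 had the most certain rise. Capitals mark the short cores of 3 factors of this cell type on either strand: AAATCA for GFI1, GAGGAA for PU.1 and TGTGGT for RUNX1, none of which overlapped another in these windows. The CD86 window (chr3:122055112-122055361, plus strand) holds 2 PU.1 cores and 1 RUNX core. The MS4A4A window (chr11:60280416-60280665, plus strand) holds 1 GFI1 core and 3 PU.1 cores, and the PI16 window (chr6:36948046-36948295, plus strand) holds 1 GFI1 and 1 RUNX core. The KCTD12 window (chr13:76886406-76886655, minus strand) holds none of them. Of the windows not shown, those of RGMB, SERPINB8 and SIRPB2 hold none either, and that of FGD6 holds 1 GFI1 core. RGMB too was near 0 in every control, so the windows shown are examples and not a full set.
CD86: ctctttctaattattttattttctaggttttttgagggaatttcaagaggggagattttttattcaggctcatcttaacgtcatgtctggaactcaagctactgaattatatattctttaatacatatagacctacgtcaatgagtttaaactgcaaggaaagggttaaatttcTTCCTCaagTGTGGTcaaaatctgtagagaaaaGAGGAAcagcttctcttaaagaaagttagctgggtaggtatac
MS4A4A: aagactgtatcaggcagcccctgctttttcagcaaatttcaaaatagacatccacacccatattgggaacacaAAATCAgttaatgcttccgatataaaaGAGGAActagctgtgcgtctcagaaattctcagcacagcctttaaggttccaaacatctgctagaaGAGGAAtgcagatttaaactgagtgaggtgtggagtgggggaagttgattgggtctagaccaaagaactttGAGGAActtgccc
PI16: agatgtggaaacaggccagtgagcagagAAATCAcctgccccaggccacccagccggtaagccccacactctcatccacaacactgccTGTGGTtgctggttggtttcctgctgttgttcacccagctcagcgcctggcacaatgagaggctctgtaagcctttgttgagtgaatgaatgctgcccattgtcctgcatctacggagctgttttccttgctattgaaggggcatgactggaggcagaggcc
KCTD12: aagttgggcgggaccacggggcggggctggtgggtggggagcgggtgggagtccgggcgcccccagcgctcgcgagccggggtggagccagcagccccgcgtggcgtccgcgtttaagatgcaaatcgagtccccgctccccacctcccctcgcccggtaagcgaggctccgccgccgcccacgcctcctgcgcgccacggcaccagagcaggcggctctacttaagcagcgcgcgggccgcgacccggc

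Cores this short occur often. Among the 49 of the 76 genes raised 2-fold that have a window, 7 held the GFI1 core (14.3%), 18 the PU.1 core (36.7%) and 4 the RUNX core (8.16%). Among the 8356 tested genes with a window the shares were 5.84%, 23% and 7.73%, and among all 27305 windows 11.7%, 23.4% and 10.9%. A match is a run of letters in the window and not a measured binding site.

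LYZ codes for lysozyme, the enzyme of monocytes and granulocytes that cleaves bacterial walls. It stood at 134 and 94.0 FPKM with RN-1 and 151 and 107 FPKM with GSK690, against 27.3 and 15.0 FPKM with GSK690* and 11.5 and 7.95 FPKM with DMSO. The inhibitor libraries did not overlap the controls, and the change was log2 3.01 ± 0.19 (SE, limma adjusted p = 1.02e-05). Both GSK690* libraries stood above both DMSO libraries.

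LY96 codes for MD-2, which binds lipopolysaccharide together with TLR4. It stood at 6.30 and 7.39 FPKM with RN-1 and 7.74 and 8.33 FPKM with GSK690, against 0.234 and 0 FPKM with GSK690* and 0 in both DMSO libraries. The gene was thus listed at 0 in 3 of 4 controls and was present in every inhibitor library (log2 3.0 ± 0.10, limma adjusted p = 1.95e-07).

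KCTD12, an auxiliary subunit of GABA-B receptors, had the smallest adjusted p of all genes (3.30e-08). It stood at 17.2 and 16.7 FPKM with RN-1 and 18.2 and 18 FPKM with GSK690, against 1.87 and 1.62 FPKM with GSK690* and 1.93 and 1.68 FPKM with DMSO. The 4 inhibitor libraries lay between 16.7 and 18.2 FPKM and the 4 controls between 1.62 and 1.93 FPKM, with the isomer and the vehicle intermingled.

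PI16, a secreted peptidase inhibitor, stood at 4.41 and 7.95 FPKM with RN-1 and 5.39 and 5.78 FPKM with GSK690, against 0.0649 and 0.103 FPKM with GSK690* and 0.0283 and 0 FPKM with DMSO. MS4A4A, a tetraspan membrane protein of macrophages, stood at 6.98 and 4.57 FPKM with RN-1 and 6.40 and 5.85 FPKM with GSK690, against 0.349 and 0.0660 FPKM with GSK690* and 0.269 and 0.0799 FPKM with DMSO. CD86, which gives T cells their costimulatory signal through CD28, stood at 4.25 and 4.78 FPKM with RN-1 and 5.10 and 5.72 FPKM with GSK690, against 0.282 and 0.300 FPKM with GSK690* and 0.291 and 0.143 FPKM with DMSO. None of the 3 exceeded 0.349 FPKM in a control library, and their changes were log2 2.69 ± 0.14, 2.54 ± 0.13 and 2.25 ± 0.09 (limma adjusted p of 2.52e-06, 2.51e-06 and 3.99e-07).

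A further group was already present in controls. SERPINB8, an intracellular serine protease inhibitor, stood at 22.5 and 23.3 FPKM with RN-1 and 24.7 and 24.3 FPKM with GSK690, against 6.65 and 5.55 FPKM with GSK690* and 3.38 and 2.61 FPKM with DMSO. GLIPR1, a secreted CAP-family protein of myeloid cells and a p53 target, stood at 25 and 28.0 FPKM with RN-1 and 27.6 and 29.1 FPKM with GSK690, against 7.97 and 6.40 FPKM with GSK690* and 3.35 and 4.15 FPKM with DMSO. SIRPB2, a signal-regulatory protein, stood at 15.5 and 15.6 FPKM with RN-1 and 15.6 and 16.2 FPKM with GSK690, against 4.43 and 3.90 FPKM with GSK690* and 2.82 and 2.26 FPKM with DMSO. In these 3 genes the GSK690* libraries lay between the inhibitors and DMSO, without overlap on either side, and the changes were log2 2.22, 2.19 and 1.97 (limma adjusted p = 3.99e-07 each).

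The other 3 of the 12 were RGMB, LGALS1 and FGD6. RGMB, which helps bone morphogenetic proteins bind their receptors, rose by log2 2.15 ± 0.08 to 3.83 ± 0.393 FPKM, against 0.0832 ± 0.0458 FPKM in controls (SD, n = 4 each). LGALS1, which codes for galectin-1, rose by log2 1.81 ± 0.17 to 12.5 ± 3.07 FPKM, against 2.80 ± 0.587 FPKM. FGD6, an exchange factor for the GTPase CDC42, rose by log2 1.74 ± 0.09 to 3.50 ± 0.252 FPKM, against 0.353 ± 0.146 FPKM. LGALS1 varied most among them, from 9.59 to 15.4 FPKM with the inhibitors, and still lay above every control, the highest of which was 3.55 FPKM.

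**Figure D2:**
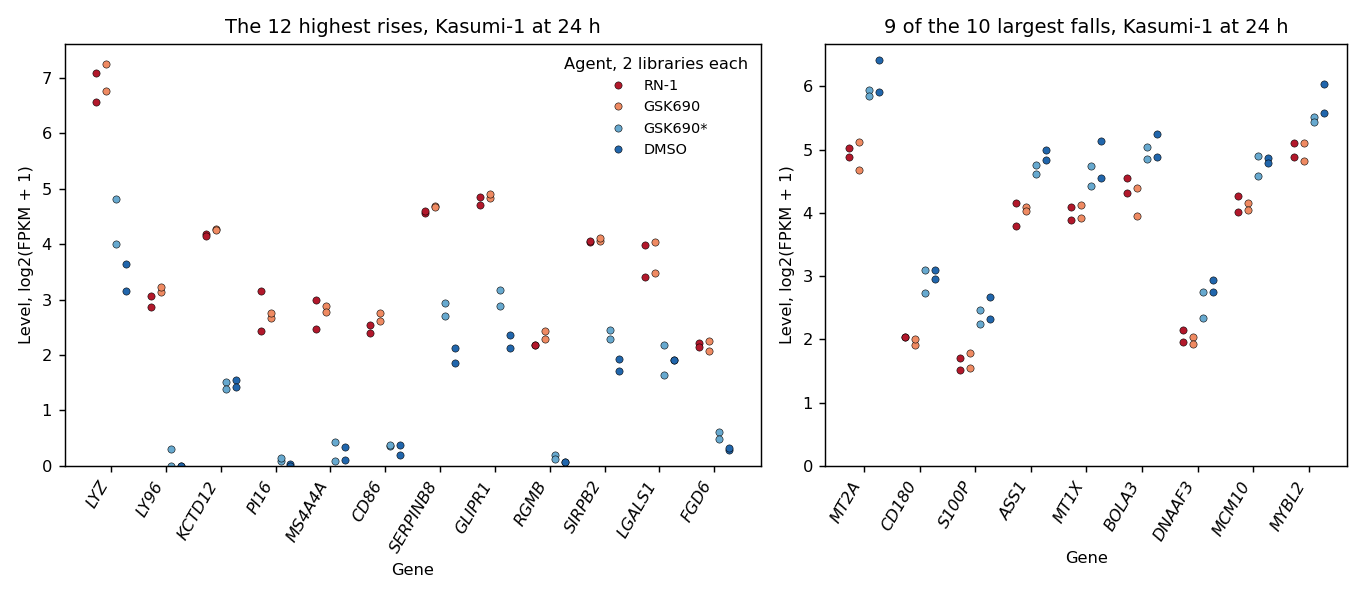
Levels on the log2(FPKM + 1) scale (vertical) in each of the 8 libraries, with agents from left to right as RN-1, GSK690, GSK690* and DMSO, for the 12 genes with the highest rise (left) and 9 of the 10 with the largest fall (right). The genes were picked among those in which no inhibitor library overlaps a control library, so the gap between the sides is part of the choice. In LYZ, SERPINB8, GLIPR1 and SIRPB2 both GSK690* points lie above both DMSO points.

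The remaining genes raised 2-fold hold several receptors of myeloid cells. GPR84, which senses fatty acids of medium chain length, rose by log2 1.72 to 7.05 ± 0.948 FPKM, against 1.44 ± 0.178 FPKM in controls. GPR65, a proton-sensing receptor, rose by 1.73, LPAR6, a receptor for lysophosphatidic acid, by 1.64, and P2RX7, the ATP-gated channel of macrophages, by 1.47. CSF1R, the receptor for macrophage colony-stimulating factor, rose by log2 1.43 ± 0.09. It stood at 7.09 and 7.14 FPKM with RN-1 and 5.94 and 6.17 FPKM with GSK690, against 1.86 and 2.45 FPKM with GSK690* and 1.35 and 1.67 FPKM with DMSO. The groups of CSF1R did not overlap.

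Other members of the 76 act in the lysosome, in blood clotting or in signalling. CTSS, the lysosomal protease that degrades the class II invariant chain, stood at 51.0 and 55.2 FPKM with RN-1 and 50.6 and 62.6 FPKM with GSK690, against 23.5 and 24.4 FPKM with GSK690* and 16.4 and 18.9 FPKM with DMSO (log2 1.37 ± 0.08). CTSO, another cathepsin, rose by log2 1.67. PROCR, the endothelial receptor of protein C and a marker of stem cells, rose by 1.16 to 49.4 ± 2.91 FPKM, against 21.6 ± 1.75 FPKM in controls, and TFPI, the inhibitor of the tissue factor pathway, rose by 1.13. ID3, which blocks basic helix-loop-helix factors, rose by 1.58, and ACVR1, a type I receptor of bone morphogenetic proteins, by 1.1. GIMAP4, a GTPase of immune cells, was listed at 0 in all 4 controls and averaged 1.89 FPKM with the inhibitors. EVI2A and EVI2B, 2 genes inside an intron of NF1, rose by 1.03 and 1.14, and since strand is not stated for the counting, reads of NF1 cannot be told apart from theirs.

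Falls were smaller. MT2A, which binds zinc and copper, stood at 31.5 and 28.4 FPKM with RN-1 and 33.7 and 24.6 FPKM with GSK690, against 60.4 and 56.6 FPKM with GSK690* and 85.0 and 59.4 FPKM with DMSO (log2 -1.11 ± 0.12, limma adjusted p = 0.000216). CD180, a relative of the Toll-like receptors that dampens TLR4, stood at 3.12 FPKM in both RN-1 libraries and 2.78 and 3.04 FPKM with GSK690, against 5.68 and 7.57 FPKM with GSK690* and 6.72 and 7.53 FPKM with DMSO. It fell by 0.97 on the log2 scale, while LY96, the partner of TLR4, was among the highest rises. ASS1, which makes argininosuccinate for arginine synthesis, fell by 0.78, S100P, a calcium-binding protein, by 0.79, BOLA3, a mitochondrial iron-sulfur factor, by 0.70, and the dynein assembly factor DNAAF3 by 0.68. MYBL2, a driver of cell cycle genes, and MCM10, which starts DNA replication, fell by 0.67 each.

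The gene lists named below were chosen with earlier results of these data known, and each count stands against the background of 13.9% of genes rising and 18.1% falling. A member under 1 FPKM in every control was tested only because it was high with the inhibitors, and it could hardly fall. Among such members are LY96, CD86, MS4A4A, TLR1, TLR6, ID3, ITGAM, ALOX5 and GBP2. Of all genes tested, 158 were under 1 FPKM in all 4 controls and 33 in all 4 inhibitor libraries. Of 18 tested members of the KDM1A complex and its recruiters, 2 rose and 2 fell (4 fell with replicate number as a block and 1 without any 1 of 6 libraries, all but replicate 2 of DMSO and of GSK690*), with a median log2 change of -0.02, the same as over all genes. GFI1 stood at 171 and 189 FPKM with RN-1 and 181 and 182 FPKM with GSK690, against 132 and 135 FPKM with GSK690* and 118 and 116 FPKM with DMSO (log2 0.53 ± 0.05, limma adjusted p = 0.000110). ZNF217, a CoREST-binding zinc finger protein, rose by 0.44, and MTA2, a subunit of the NuRD complex, fell by 0.26. HDAC2 fell by 0.14 with an adjusted p of 0.0478, a call that ended without any 1 of 7 libraries or with either scaling, and HDAC1 changed by -0.15 (adjusted p = 0.0607, and 0.00927 with replicate number as a block). RCOR1 stood at 15.3 to 18.3 FPKM with the inhibitors and 15.3 to 17.6 FPKM in controls, and its change of log2 0.04 did not pass.

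Among 19 tested myeloid transcription factors 6 rose and none fell (3 rose without RN-1 replicate 2 and 9 with replicate number as a block). They include GFI1, ID3, KLF6 (log2 0.33) and JUN (0.38, a call lost if RN-1 replicate 2 or replicate 1 of GSK690 or DMSO was left out), the last 2 of them factors of early activation. SPI1, the gene of PU.1, stood at 53.2 to 57.8 FPKM with the inhibitors and 41.5 to 53.4 FPKM in controls, and its change of 0.16 did not pass (adjusted p = 0.108). RUNX1 changed by 0.08 and did not pass. RUNX1T1 rose by 0.15 (adjusted p = 0.0460), a call that was lost without any single library. Of 8 tested genes known to be high in leukaemia with this fusion, 3 rose and 1 fell, among them the guidance receptor ROBO1 (log2 0.57) and the phosphatase UBASH3B (-0.26). With GSK690* alone as the control 1 rose and none fell.

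Most tested markers of monocytes and macrophages rose. Of 16 tested, 11 rose, none fell and 5 did not pass (12 rose and 2 fell with replicate number as a block), with a median log2 change of 0.59, but 15 of the 32 listed markers stayed under 1 FPKM in all 8 libraries, CD14 among them. CD86 and MS4A4A were under 1 FPKM in every control, so only the inhibitor libraries brought them into the test. The summed level of the list was 477 to 524 FPKM with the inhibitors and 285 to 343 FPKM in controls. LYZ alone averaged 122 FPKM with the inhibitors and 15.4 FPKM in controls, so much of the gap in the sum is this gene. Beside LYZ, MS4A4A, CD86, CSF1R and CTSS, the membrane protein MS4A7 rose by 1.11 and the complement receptor VSIG4 by 0.96. S100A9, a calcium-binding protein of neutrophils and monocytes, and SIRPA, the receptor for CD47, changed by -0.25 and -0.18 and did not pass, but were the 2 that fell with replicate number as a block (adjusted p of 0.0406 and 0.0291). In such bulk samples more cells of a type and more RNA per cell cannot be told apart.

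Lists of leukocyte receptors and adhesion molecules rose in part. Of 15 tested genes of Toll-like receptors and lipopolysaccharide signalling 6 rose and 1, CD180, fell (3 and 1 with GSK690* alone as the control), with a median log2 change of 0.145. TLR1, which pairs with TLR2 to sense bacterial lipopeptides, stood at 2.27 and 2.46 FPKM with RN-1 and 2.50 and 2.34 FPKM with GSK690, against 0.390 and 0.165 FPKM with GSK690* and 0.114 and 0.150 FPKM with DMSO. TLR6, the other partner of TLR2, rose by log2 1.2, but its locus lies inside that of TLR1. Reads of TLR1 and TLR6 therefore cannot be fully told apart. TLR2 rose by 0.22 (a call lost without DMSO replicate 1 or GSK690 replicate 2), while TLR4 changed by 0.04 and MYD88, the adaptor of these receptors, by 0.14, and neither passed, MYD88 with a limma adjusted p of 0.0309 under the block. Of 13 tested integrins and adhesion genes 10 rose and none fell (median 0.44, and 1 fell without GSK690* replicate 2), with ITGAX (CD11c) at 1.03, ICAM2 at 0.92, CD44 at 0.71 and ITGAM (CD11b) at 0.81. ITGAM stood at 1.30 to 1.53 FPKM with the inhibitors and 0.241 to 0.657 FPKM in controls, and the groups did not overlap. Of 13 tested Fc and immunoglobulin-like receptors 8 rose and none fell (median 0.32, and 10 and 1 with replicate number as a block), led by SIRPB2. FCGR2C (0.76) shares nearly all its sequence with FCGR2B, so its reads may belong to either.

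Granule proteins of neutrophils were split. Of 11 tested, 3 rose and 3 fell (2 and 1 without GSK690 replicate 2, 3 and 1 if RN-1 replicate 2 or replicate 1 of either control was left out, and 5 and 4 with replicate number as a block), with a median log2 change of -0.03. With GSK690* alone as the control none passed. CTSG, the granule protease cathepsin G, changed by -0.57, and its call ended without any 1 of 4 libraries, DMSO replicate 1 among them. AZU1, the antimicrobial azurocidin, rose by 0.37, while ELANE, neutrophil elastase, and MPO changed by -0.03 and 0.17 and did not pass, although MPO passed with replicate number as a block (adjusted p = 0.0257) and without DMSO replicate 1. ALOX5, which starts the synthesis of leukotrienes, rose by log2 0.84 to 0.959 to 1.64 FPKM, against 0.103 to 0.421 FPKM in controls. It was 1 of 4 tested markers of mast cells, basophils and eosinophils, of which 3 rose and 1 fell (1 and 1 without any 1 of 4 libraries, GSK690* replicate 1 among them).

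Progenitor genes did not move as 1 group. Of 18 tested, 5 rose and 3 fell (4 and 1 without GSK690* replicate 1 or with GSK690* alone as the control, 6 and 1 without DMSO replicate 1, 5 and 1 without GSK690 replicate 2, and 7 and 3 with replicate number as a block), with a median log2 change of 0.10. CD34, the surface marker of stem and progenitor cells, stood at 108 and 150 FPKM with RN-1 and 111 and 144 FPKM with GSK690, against 71.0 and 91.8 FPKM with GSK690* and 63.9 and 79.2 FPKM with DMSO (log2 0.73 ± 0.13, limma adjusted p = 0.00297). ERG, a transcription factor of stem cells, rose by 0.59 to 44.0 to 50.1 FPKM, against 27.4 to 34.1 FPKM in controls. KIT, the receptor for stem cell factor, stood at 176 and 193 FPKM with RN-1 and 165 and 190 FPKM with GSK690, against 228 and 249 FPKM with GSK690* and 224 and 240 FPKM with DMSO. KIT fell by 0.38 on the log2 scale. CD34 and ERG were thus higher, and KIT lower, in every inhibitor library than in any control.

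Genes of antigen presentation rose in part. In the class I list 8 of 18 tested genes rose and none fell (5 without RN-1 replicate 2, 4 with GSK690* alone as the control and 13 with replicate number as a block), with a median log2 change of 0.27. PSMB9, a subunit of the immunoproteasome, rose by 0.81, the peptide trimmer ERAP2 by 0.65 and HLA-E by 0.45. In the class II list 4 of 6 tested genes rose (2 without any 1 of 5 libraries, RN-1 replicate 1 among them, and 1 with GSK690* alone as the control), led by CTSS. HLA-DRA, the alpha chain of HLA-DR, stood at 3.88 to 4.97 FPKM with the inhibitors and 2.98 to 3.52 FPKM in controls, and 7 of the 15 genes listed stayed under 1 FPKM in all 8 libraries. HLA genes are alike in sequence, so a single HLA value is uncertain.

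Interferon-stimulated genes carried a difference between replicate numbers. Of 35 tested, 5 rose and none fell, with a median log2 change of 0.33, and 14 rose without RN-1 replicate 1 and 10 without GSK690 replicate 1. With replicate number as a block 21 rose and none fell. In 22 of the 35 all 4 libraries of replicate 2 lay above all 4 of replicate 1, as they did in 2.04% of the genes tested. IFI6, a mitochondrial protein induced by interferon, stood at 22.5 and 20.6 FPKM in replicate 1 of RN-1 and GSK690, against 23.8 and 18.8 FPKM in replicate 1 of GSK690* and DMSO. In replicate 2 it stood at 177 and 151 FPKM with RN-1 and GSK690, against 162 and 122 FPKM with GSK690* and DMSO. OAS1, which makes the activator of RNase L, stood at 5.29 and 3.40 FPKM in replicate 1 of RN-1 and GSK690, against 1.93 and 1.25 FPKM in replicate 1 of GSK690* and DMSO. In replicate 2 it stood at 17.2 and 14.9 FPKM, against 7.37 and 4.06 FPKM. OAS1 was thus higher with the inhibitors within each replicate number but overlapped between them, and its change of log2 1.21 did not pass (adjusted p = 0.0875, and 4.09e-05 with the block). HERC5, a ligase for the ubiquitin-like protein ISG15, rose by 1.18, TRIM22, an antiviral ligase, by 1.21, GBP2, a GTPase induced by interferon, by 1.03 and the transcription factor IRF1 by 0.85. What the replicate numbers stand for was not tested.

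Cytokines, cytokine receptors and NF-kB feedback genes rose in part. Of 10 tested cytokines and chemokines 7 rose and 1 fell (median log2 change 0.48, and 4 rose and none fell with GSK690* alone as the control). IL8, the chemokine that draws neutrophils, stood at 17.6 and 13.2 FPKM with RN-1 and 18.9 and 15.6 FPKM with GSK690, against 7.54 and 5.66 FPKM with GSK690* and 5.42 and 3.21 FPKM with DMSO (log2 1.46 ± 0.15). TNFSF10, the death ligand TRAIL, rose by 0.97 and IL16 by 0.59, while the chemokine CCL5 was the 1 that fell, by 0.25 (adjusted p = 0.0229, a call lost without any 1 of 4 libraries, replicate 1 of each control or replicate 2 of each inhibitor). Of 14 tested NF-kB factors and feedback targets 6 rose and none fell (median 0.13), among them NFKBIA (0.60), which holds NF-kB in the cytoplasm, and its nuclear relative NFKBIZ (0.69). Of 22 tested cytokine receptors and STAT feedback genes 13 rose and none fell (8 without DMSO replicate 1 or GSK690 replicate 2, and 7 with GSK690* alone as the control), with a median of 0.25. Beside CSF1R they include IL4R (0.67), CSF2RA (0.47), the alpha chain of the GM-CSF receptor, and the interferon-gamma receptor chain IFNGR1 (0.42).

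**Figure D3:**
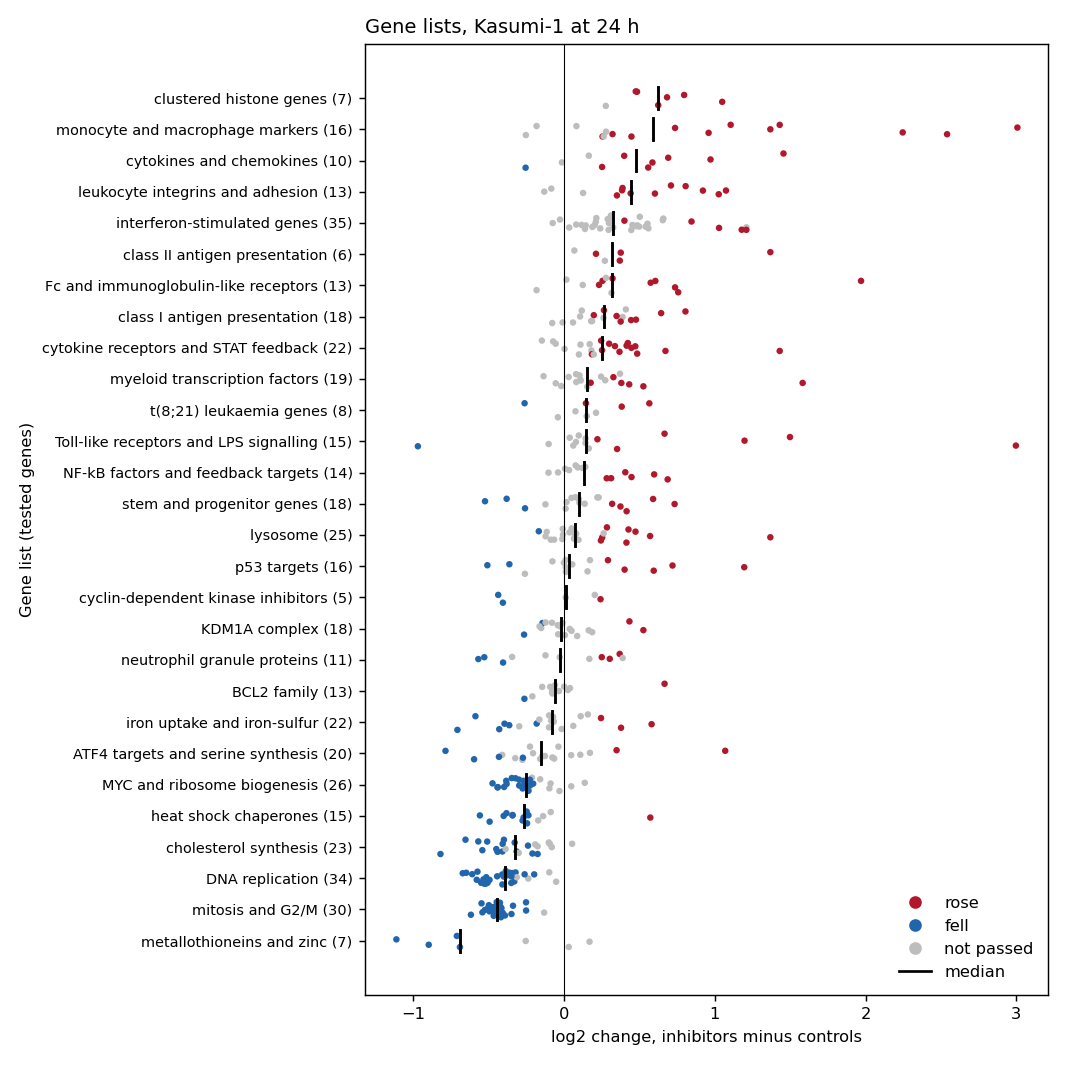
Each point is a tested gene of a list, placed by its log2 change (inhibitors minus controls, horizontal), red if it rose, blue if it fell and grey if it did not pass, with a black bar at the median of the list and the number of tested genes in brackets. Lists of replication, mitosis and metallothioneins have medians of -0.39, -0.44 and -0.69, and monocyte and macrophage markers one of 0.59.

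Genes of cell division fell almost as a block, each by a small amount. Of 34 tested DNA replication genes 30 fell and none rose, with a median log2 change of -0.39, and of 30 tested genes of mitosis 29 fell and none rose (median -0.44). The summed level of the replication list was 1151 to 1326 FPKM with the inhibitors and 1531 to 1827 FPKM in controls, with no overlap. CCNA2, the cyclin that drives S phase and entry into mitosis, stood at 18.4 and 17.1 FPKM with RN-1 and 18.7 and 16.6 FPKM with GSK690, against 28.3 and 25.1 FPKM with GSK690* and 30.6 and 26.9 FPKM with DMSO (log2 -0.62 ± 0.07, limma adjusted p = 0.000300). The replisome factors GINS2 and CDC45 fell by 0.65 and 0.61, the sliding clamp PCNA by 0.58 and MKI67, the marker Ki-67, by 0.44. CDT1 and POLE, which license origins and copy the leading strand, changed by -0.10 and -0.05 and did not pass.

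Genes of growth and of cell death moved less. Of 26 tested MYC and ribosome biogenesis genes 18 fell and none rose (median -0.25), led by the nucleolar factors LYAR (-0.47) and UTP20 (-0.44) and by POLR1A (-0.44), the catalytic subunit of RNA polymerase I. MYC stood at 138 to 170 FPKM with the inhibitors and 167 to 209 FPKM in controls, and its change of -0.22 did not pass (adjusted p = 0.0626, and 0.00824 with replicate number as a block). Of 16 tested p53 targets 5 rose and 2 fell (median 0.04). TNFRSF10B, a death receptor for TRAIL, stood at 10.8 and 13 FPKM with RN-1 and 12.5 and 13.1 FPKM with GSK690, against 5.23 and 5.80 FPKM with GSK690* and 4.57 and 3.81 FPKM with DMSO (log2 1.2 ± 0.08), while the growth arrest gene GADD45A fell by 0.51. Of 13 tested BCL2 family genes BMF, a BH3-only protein that promotes apoptosis, rose by 0.67 and 1 other fell (none without GSK690 replicate 2 and 2 without GSK690* replicate 1), and 11, among them BCL2 (-0.14) and MCL1 (-0.06), did not pass. Of 5 tested inhibitors of cyclin-dependent kinases 1 rose and 2 fell (1 fell without any 1 of 6 libraries, all but GSK690* replicate 1 and RN-1 replicate 2), and CDKN1B, which codes for p27, rose by 0.24 to 13.6 to 14.2 FPKM, against 10.8 to 12.2 FPKM in controls. With GSK690* alone as the control none of the 5 rose and 1 fell. Of 7 tested clustered histone genes 6 rose (3 without GSK690 replicate 2), led by HIST1H2AC (1.05), and near-identical histone genes share reads.

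Metabolic lists fell or split. Of 23 tested genes of cholesterol synthesis 15 fell and none rose, with a median log2 change of -0.33 (9 fell without RN-1 replicate 1, 8 without GSK690 replicate 1 and 18 with replicate number as a block). With GSK690* alone as the control 7 fell, with quantile normalization 9 and with all 32 libraries in 1 fit 7. In GSK690 against GSK690* 2 fell. The 15 include SQLE, the squalene epoxidase (-0.57), and CYP51A1, the lanosterol demethylase (-0.54). Of 25 tested lysosomal genes 8 rose and 1 fell (median 0.07, and none fell without any 1 of 6 libraries, all but replicate 2 of each control), with CTSS at 1.37 and another protease, CTSB, at 0.48. Of 7 tested metallothionein and zinc genes 4 fell and none rose (median -0.69, and 2 fell without any 1 of 4 libraries, replicate 1 of each control or replicate 2 of each inhibitor, while 1 rose without DMSO replicate 2), and the metallothioneins are alike in sequence. With GSK690* alone as the control 2 fell. The summed level of that list was 74.0 to 92.0 FPKM with the inhibitors and 116 to 168 FPKM in controls.

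Of 22 tested iron and iron-sulfur genes 3 rose and 6 fell (median -0.08). TFRC, the transferrin receptor, stood at 80.6 and 77.6 FPKM with RN-1 and 70.0 and 73.3 FPKM with GSK690, against 115 and 108 FPKM with GSK690* and 115 and 116 FPKM with DMSO (log2 -0.59 ± 0.05, limma adjusted p = 5.29e-05). FTH1, the ferritin heavy chain that stores iron, rose by 0.38, and HSCB, a chaperone for iron-sulfur clusters, by 0.58. Of 15 tested heat shock chaperones 11 fell and 1 rose (median -0.27, and 7 fell without GSK690 replicate 2 and 6 with GSK690* alone as the control). HSP90AA1, the inducible HSP90, stood at 307 to 358 FPKM with the inhibitors and 399 to 504 FPKM in controls, and the cochaperone BAG3 was the 1 that rose, by 0.57. Of 20 tested ATF4 targets and serine synthesis genes 2 rose and 4 fell (median -0.15, and 2 fell without DMSO replicate 1 or GSK690 replicate 2, 2 with GSK690* alone as the control, 7 without RN-1 replicate 1 and 9 with replicate number as a block), with DDIT4, an inhibitor of mTORC1, at 1.07 and ASS1 at -0.78.

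Each inhibitor was also compared with its own control, and the means compared share no library. Both comparisons took the error of a gene from 1 fit of all 8 libraries, so their calls are not independent. Without GSK690 replicate 1, for example, RN-1 against DMSO gave 1603 genes in place of 1915. RN-1 against DMSO gave 956 genes higher (8.73%) and 959 lower (8.75%), 17.5% of 10956 tested. GSK690 against GSK690* gave 537 higher (4.9%) and 429 lower (3.92%), 8.82% of 10955 tested. In both, 796 genes passed, each of them in the same direction, which is 41.6% of the genes called with RN-1 and 82.4% of those called with GSK690. The 2 changes had the same sign in 78.05% of all genes, and across 10954 genes, which are not independent, the Pearson r was 0.824. Of 96 genes raised 2-fold by RN-1, 94 also rose with GSK690 and the other 2 had the same sign. Genes that rose with RN-1 had a median log2 change of 0.52 with RN-1 and 0.38 with GSK690, but they were chosen for the first value. The 2 changes also have different controls. In the 1518 genes that rose with the inhibitors, RN-1 minus GSK690 had a median of log2 -0.02 and GSK690* minus DMSO one of 0.10. What the gap between the 2 changes comes from was not tested. The counts were larger with replicate number as a block, at 3101 and 2108 genes. Left-out libraries moved them as well, to 557 without DMSO replicate 1, 946 without RN-1 replicate 1 and 652 without RN-1 replicate 2 in the RN-1 comparison. The GSK690 comparison gave 285 and 169 genes when GSK690 replicate 1 or 2 was left out, and 238 when GSK690* replicate 1 was.

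**Figure D4:**
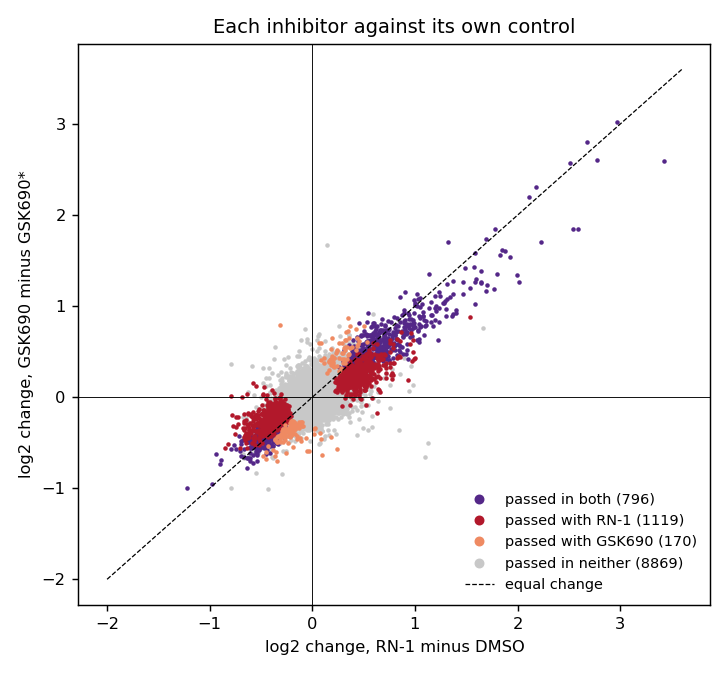
The log2 change of each gene with GSK690 against GSK690* (vertical) is plotted against its change with RN-1 against DMSO (horizontal), coloured by which comparison passed, with a dashed line where both are equal. The 796 genes that passed in both lie in the upper right and lower left.

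RN-1 and GSK690 were not separable at this number of libraries. At 1 µM and 24 h limma called none of 10955 genes (0% called), 126 had an unadjusted p under 0.05 (1.15%), and none passed in a fit with the block or without any single library. The difference RN-1 minus GSK690 was log2 -0.18 for LYZ (95% interval -0.79 to 0.43), -0.09 for KCTD12 (-0.31 to 0.13), -0.22 for CD86 (-0.49 to 0.06) and 0.20 for CSF1R (-0.07 to 0.47). For MT2A it was 0.05 (-0.32 to 0.43) and for TFRC 0.14 (-0.01 to 0.29). These intervals cover 0 and, in LYZ, also a difference as large as 0.79, so equal action is not shown.

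GSK690* and DMSO, the 2 controls, were also compared at 24 h. Limma called none of 10956 genes (0% called), 772 had an unadjusted p under 0.05 (7.05%), and 1 gene passed with replicate number as a block. The 76 genes raised 2-fold had a median log2 difference, GSK690* minus DMSO, of 0.28, and single genes ranged from -0.15 to 1.01, against a median of 0.004 over all genes. Both comparisons use the same 4 control libraries, so the values stand side by side as a description. LYZ was higher with GSK690* by log2 1.01 (95% interval 0.40 to 1.62, limma adjusted p = 0.684), SERPINB8 by 0.83 (0.58 to 1.08, adjusted p = 0.246), GLIPR1 by 0.78 (0.52 to 1.05, adjusted p = 0.246) and SIRPB2 by 0.55 (0.32 to 0.78, adjusted p = 0.534). CTSS stood 0.43 higher (0.18 to 0.67) and GFI1 0.19 higher (0.03 to 0.34). KCTD12 stood at -0.03 (-0.25 to 0.19), CD86 at 0.09 (-0.19 to 0.37), MS4A4A at 0.03 (-0.38 to 0.45) and LGALS1 at 0.00 (-0.53 to 0.53). The single genes were read without correction in these intervals, and each adjusted p missed the threshold. With GSK690* alone as the control 1589 genes passed for the inhibitors, and with DMSO alone 2999.

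The 24 h response of Kasumi-1 was set against 2 other sets of 8 libraries with the same agents, Kasumi-1 at 72 h and SKNO-1, another leukaemia line with the same fusion, at 24 h. SKNO-1 grew in 10% serum with GM-CSF, so the line and its medium cannot be told apart. The authors' sample table names the opposite line for the 72 h libraries, and the titles were used. By them, the 72 h libraries of Kasumi-1 had a mean r across genes of 0.967 to 0.978 with Kasumi-1 at 24 h and of 0.846 to 0.864 with SKNO-1 at 24 h. The 76 genes, which were chosen by their 24 h value, had a median log2 change of 1.25 at 24 h and 1.44 at 72 h in Kasumi-1, and 0.92 in SKNO-1 at 24 h. All 76 also rose at 72 h in Kasumi-1, and 58 rose in SKNO-1 at 24 h, with 75 of the same sign there. The share of all genes that rose in those 2 sets is not given here, so these counts stand without a background.

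As a difference between the times, the log2 change was higher at 24 h in 5 genes (0.0457%) and lower in 15 (0.137%), 0.183% of 10952 genes. The filter used the 24 h libraries alone, so genes present only at 72 h were not tested. PI16 averaged 5.88 FPKM at 24 h and 15.9 FPKM at 72 h with the inhibitors, with 0.0490 and 0.0368 FPKM in the controls of those times. Its response at 24 h was smaller by log2 1.33 ± 0.19 (limma adjusted p = 0.0124), that of KCTD12 smaller by 1.11 ± 0.11 (adjusted p = 0.000637) and that of TNFSF10 smaller by 0.71. GPR84 (-0.74), the adaptor BCAR3 (-0.83) and MFGE8 (-0.78), which bridges dying cells to phagocytes, also responded less at 24 h. The response of SERPINA1 was the most different in the other direction. SERPINA1, the plasma protease inhibitor alpha-1-antitrypsin, averaged 93.2 FPKM with the inhibitors and 99.2 FPKM in controls at 24 h, against 14.6 and 30.7 FPKM at 72 h (difference 0.95 ± 0.15, adjusted p = 0.0236). ENTPD1, the ectonucleotidase CD39, rose by 0.88 at 24 h and changed by 0.08 at 72 h (difference 0.80). The count of 20 genes was 5 to 10 without any single 24 h library of Kasumi-1 and 90 with replicate number as a block, and 12 and 13 with the 2 other scalings.

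As a difference between the lines at 24 h, the log2 change was higher in Kasumi-1 in 71 genes (0.648%) and lower in 23 (0.21%), 0.858% of 10952 genes. A lower change can be a larger fall. The genes had to reach 1 FPKM in at least 2 of the 8 Kasumi-1 libraries at 24 h, so genes present only in SKNO-1 were not tested. The counts of 71 and 23 therefore do not weigh the lines evenly. PI16 responded more in Kasumi-1 by log2 2.53 ± 0.19 (limma adjusted p = 1.86e-05), and in SKNO-1 it averaged 0.121 FPKM with the inhibitors and was listed at 0 in controls. A gene near 0 in SKNO-1, as PI16, FGD6 and WLS were, adds groups with little spread to this fit. Its SE and adjusted p can therefore be too small. With a pseudocount of 0.1, 61 genes passed, 54 of them shared with the 94. LYZ responded more by 1.74 ± 0.27 (adjusted p = 0.00743), and in SKNO-1 it averaged 109 FPKM with the inhibitors and 44.5 FPKM in controls. The difference was 1.6 for FGD6, 1.48 for IL8, 1.42 for WLS, the carrier of Wnt proteins, 1.18 for CSF1R, 1.17 for SERPINB8, 1.04 for KCTD12 and 0.85 for CTSS. WFDC1, a secreted WAP-domain protein, fell by 0.56 in Kasumi-1, where it averaged 4.15 FPKM with the inhibitors and 6.54 FPKM in controls. In SKNO-1 it averaged 22.8 and 3.23 FPKM, so its response was lower in Kasumi-1 by 3.03 ± 0.41 (adjusted p = 0.00315). The tetraspanin TSPAN7 (-2.10) and ANXA2 (-1.62), an annexin that binds plasminogen, rose in both lines and less in Kasumi-1. Of Kasumi-1, leaving out DMSO replicate 1 gave 59 genes in place of 94, leaving out RN-1 replicate 2 gave 60 and leaving out GSK690 replicate 2 gave 50, while replicate number as a block gave 365. GFI1 rose in both lines, with a difference of 0.08 that did not pass.

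**Figure D5:**
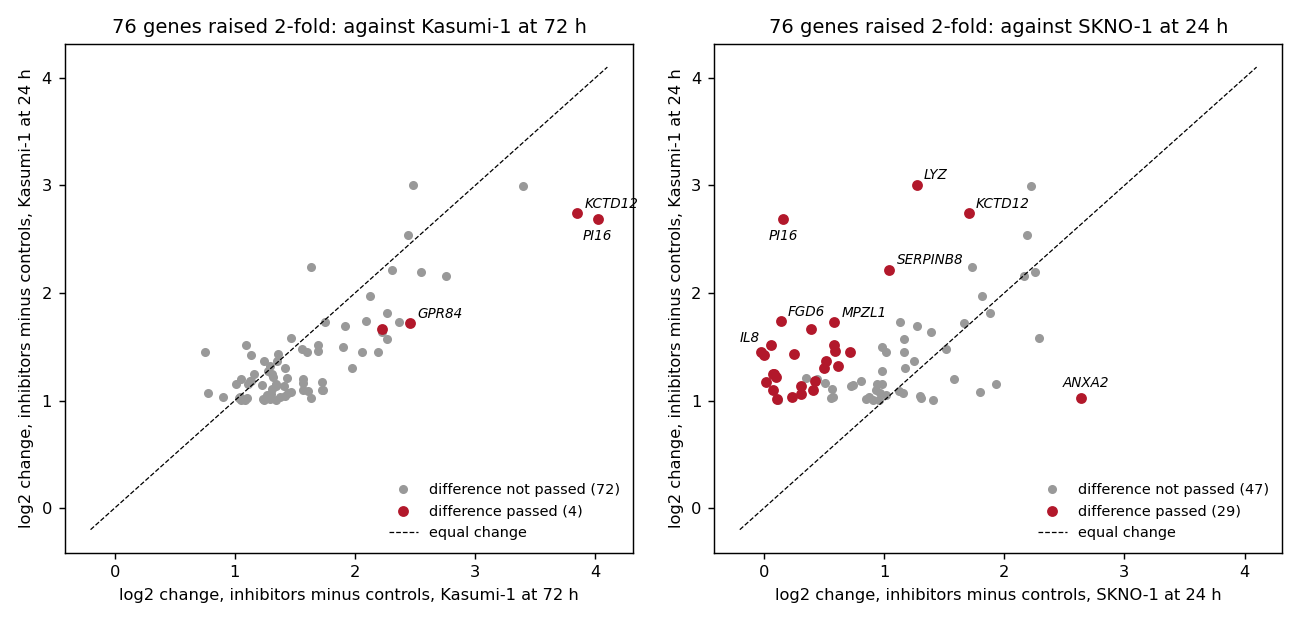
For the 76 genes raised 2-fold in Kasumi-1 at 24 h, the log2 change there (vertical) is plotted against that of the same genes in Kasumi-1 at 72 h (left) and in SKNO-1 at 24 h (right), with a dashed line of equal change and red points where the difference passed. PI16, KCTD12 and GPR84 lie below the line on the left, while PI16, LYZ and FGD6 lie far above it and ANXA2 below it on the right.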

How the data were processed

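FPKM values of 32 libraries were deposited by the authors as 1 table of genes, with gene symbols and hg19 loci, and the submitters' processing notes name TopHat 1.4.1, Cufflinks and hg19. Counting by strand, the annotation and library type are not given in the sources used here. Relative depth, read roughly from 2360 low genes, ran from 0.891 to 1.12.

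The filter was 1 FPKM or more in 2 or more of the 8 libraries, which kept 10957 genes. Their log2(FPKM + 1) values entered limma (version 3.58.1, R 4.3.3), where each of the 4 groups had its own mean and the variance a trend (4 residual, 5.86 prior degrees of freedom). The 24 h response was compared with the other sets as an interaction over 16 libraries. Tests were 2-sided, adjusted by Benjamini and Hochberg over all genes tested, with a threshold of 0.05. In these libraries 14 cells have no value and were left missing. The fit was tested on simulated data. Plots were drawn with matplotlib 3.10.9 and tables made with pandas 2.3.3 and numpy 2.4.6 under Python 3.11.15.

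The members, the 34 gene lists (1 of 721 entries matched no symbol) and the rule for names were chosen with earlier results of these data known. The rule names the 12 highest and 10 lowest changes without overlap, up to 3 genes of each list, up to 4 of each other comparison and 16 followed genes. Further members of a list, of the 76 genes or of an interaction were picked as examples after their values were seen. 1 of the followed genes is not analysed here, and a few other named genes are not reported here.

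The titles give replicate numbers. Deviations from the group means of same-numbered libraries correlated in all 6 pairs of groups (0.142 to 0.473). An alternative fit therefore took the numbers as pairing the libraries, with replicate number as a block. The main fit has no such term, so its p-values do not account for this pairing. The pairing comes from the data, since the labels give numbers alone, and the fit with a replicate block is given where it changes the call of a gene described or moves a count by over 1.5 times, and for some smaller changes. The other alternatives were a pseudocount of 0.1, no filter, quantile normalization, the median of ratios, each library left out, all 32 libraries in 1 fit, 2 groups of 4, and either control alone.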

Additional observations from a re-analysis of the deposited data

Results flagged for a closer look

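Single libraries stood apart from the other 3 of their side in 8 named genes, by a gap test that chance alone passes in about 1 of 20 groups. There were 111 named genes with 2 sides each, so at that rate chance alone would flag several. The 8 are therefore listed as a description. With the inhibitors, TNFSF10 stood at 6.21 FPKM in RN-1 replicate 2, against 5.52 to 5.6 FPKM in the others. BCAR3 stood there at 1.94 FPKM, against 1.55 to 1.61 FPKM. GBP2 stood at 1.74 FPKM in GSK690 replicate 1, against 1.27 to 1.34 FPKM, and HDAC2 at 116 FPKM in RN-1 replicate 1, against 110 to 111 FPKM. Among controls, LY96 stood at 0.234 FPKM in GSK690* replicate 1 and was listed at 0 in the others. MT2A stood at 85.0 FPKM in DMSO replicate 1, against 56.6 to 60.4 FPKM. CD79B, a B cell receptor subunit, stood at 8.37 FPKM in GSK690* replicate 2, against 5.99 to 6.33 FPKM, and CD86 at 0.143 FPKM in DMSO replicate 2, against 0.282 to 0.300 FPKM.

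Responses that differed between the sets were those with a limma interaction past the threshold. Minus the response at 72 h, the response at 24 h in Kasumi-1 was log2 -1.33 for PI16, -1.11 for KCTD12, -0.83 for BCAR3, -0.71 for TNFSF10 and 0.95 for SERPINA1. Minus the response of SKNO-1 at 24 h, that of Kasumi-1 was 2.53 for PI16, 1.74 for LYZ, 1.6 for FGD6, 1.48 for IL8, 1.18 for CSF1R, 1.17 for SERPINB8 and 1.04 for KCTD12. It was 0.85 for CTSS, 0.76 for ICAM2 (adjusted p = 0.0112), 0.75 for HERC5 (adjusted p = 0.0265) and 0.57 for BCAR3 (adjusted p = 0.0357). It was -3.03 for WFDC1, -2.10 for TSPAN7 and -1.91 for FCGR2C (adjusted p = 0.0445). The cause of these differences was not tested.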

How the results depend on the processing

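With 2 libraries a group, counts of genes moved with single libraries and with the fit, and depth is unknown. The inhibitor count of 3496 was 2258 to 3348 without any 1 library and 1589 with GSK690* alone as control. RN-1 against DMSO gave 1121 without a filter, 1086 with all 32 libraries, 3101 with a replicate block and 557 to 2043 without any 1 library. GSK690 against GSK690* gave 391, 464, 2108 and 169 to 909. GSK690* against DMSO gave 1 with the block, 1 with all 32 libraries and 0 to 1 without any 1 library. RN-1 against GSK690 gave 0 in every setting run. The difference from 72 h gave 12 with quantile normalization, 13 with the median of ratios, 90 with the block and 5 to 10 without any 1 library. The difference from SKNO-1 gave 61 with a pseudocount of 0.1, 181 without a filter, 165 with quantile normalization, 365 with the block and 50 to 81 without any 1 library. For 110 named genes, 1716 of 1870 values kept direction and side of the threshold, 139 missed it, 11 newly passed and 4 changed sign. Neither gene of those 4 passed: SERPINA1 stood at 0.015 with quantile normalization and -0.178 to 0.0071 without any 1 library (the highest without DMSO replicate 1), and RCOR1 at -0.026 with GSK690* alone and -0.020 to 0.099 (the lowest without RN-1 replicate 1). Of 104 named genes that passed, 77 passed in every setting. Among the genes named by rule, the block changed the call of HDAC1 and MYC and of no other. The causes were not tested.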
